A study of Mus musculus with 6 samples.

Results

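The genes of the MHC class II pathway, with the invariant chain Cd74, the transactivator Ciita and the protease Ctss, were read on arrays of sorted mouse bone marrow erythroblasts. The genes were chosen by symbol, and 8 of the 9 listed had at least 1 probe set annotated to that symbol alone. These 8 genes, of 12393 with such a probe set, were covered by 12 of the 22626 probe sets tested. H2-Ob was listed too, but its 1 probe set is shared with another symbol, so no value is given for it. There were 3 wild type samples and 3 samples from mice that express a mutant RPS19 transgene (RPS19R62W); RPS19 is a component of the small subunit of the ribosome. The strain was FVB/N throughout, and CD71, which is the transferrin receptor, was the marker of the sort. The series title names Diamond-Blackfan anaemia, a failure of red cell production, and the question was how the mutant transgene alters the transcripts of erythroblasts. The labels give neither the promoter of the transgene nor the age of the mice. Nor do they tie each sample to an animal of its own, so a p-value here sets a difference against a spread that may be partly or wholly technical. In such bulk samples, fewer cells of a type and less RNA per cell cannot be told apart.

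MHC class II molecules are pairs of an alpha and a beta chain that present peptides from the endosome to CD4+ T cells. The invariant chain holds newly made pairs and fills their groove, cathepsin S (Ctss) cuts it down, H2-DM removes the last fragment, and H2-O restrains H2-DM. Ciita switches the genes on together through promoters bound by RFX and NF-Y. In bone marrow they are known from B cells, dendritic cells and macrophages, and terminal erythroid cells are not counted among the cells that present antigen in this way. FVB/N mice carry the q haplotype of the MHC, which makes no E alpha chain, so that E beta (H2-Eb1) lacks its usual partner.

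The promoters show what these genes share in sequence. RefSeq windows (GRCm38.p6, the C57BL/6J reference) from 250 bases before to 50 bases after a start were present for 6 of the 9 listed genes in 7 windows; Cd74, H2-Ab1 and Ciita were not matched. The core of the X box, the RFX site, was searched as GCAAC and the core of the Y box, the NF-Y site, as TGATTGG, each on both strands. The spacing, 15 to 35 bases from the end of GCAAC to the start of TGATTGG on the same strand, was set after the windows had been read. The ordered pair stood in the windows of H2-Aa, H2-Eb1, H2-Oa and H2-Ob, 4 of the 7, and in 67 of all 32851 windows (0.204%). GCAAC alone stood in 35.2% of all windows and TGATTGG alone in 7.82%. The 150 bases before the start are shown for the 3 of these genes with values and, as a member with neither core, for Ctss, with both cores in capitals where they form the pair.
H2-Aa: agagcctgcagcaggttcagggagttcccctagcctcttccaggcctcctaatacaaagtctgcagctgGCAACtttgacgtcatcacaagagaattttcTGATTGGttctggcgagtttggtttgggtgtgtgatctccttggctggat
H2-Eb1: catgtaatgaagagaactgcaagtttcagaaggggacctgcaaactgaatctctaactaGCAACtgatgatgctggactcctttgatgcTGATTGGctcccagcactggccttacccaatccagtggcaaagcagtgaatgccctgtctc
H2-Oa: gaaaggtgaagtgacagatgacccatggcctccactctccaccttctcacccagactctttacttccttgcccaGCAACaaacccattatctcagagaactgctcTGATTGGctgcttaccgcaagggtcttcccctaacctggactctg
Ctss: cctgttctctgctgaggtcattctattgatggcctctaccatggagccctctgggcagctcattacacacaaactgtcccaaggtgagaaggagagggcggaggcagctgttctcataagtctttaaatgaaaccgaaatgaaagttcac
The H2-Aa window is chr17:34287824-34287973 on the minus strand, that of H2-Eb1 chr17:34305717-34305866 (plus), that of H2-Oa chr17:34092229-34092378 (plus) and that of Ctss chr3:95526636-95526785 (plus). The cores were 26 bases apart in H2-Aa and H2-Oa, 25 in H2-Eb1 and 23 in H2-Ob. A match is a description and no evidence of binding in these cells.

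The wild type arrays lay closer together than the mutant ones: the SD over probe sets of the log2 difference between a pair of arrays was 0.14 to 0.19 among wild type, 0.34 to 0.50 among mutant and 0.38 to 0.43 between the groups. Poly(A) controls spiked into the RNA before labelling averaged 8.74 to 8.77 (log2) on wild type and 11.58 to 13.47 on mutant arrays. The 3' minus 5' signal of Gapdh was -0.087 to -0.049 on wild type and 0.25 to 0.31 on mutant arrays. The part of these differences in the values below was not tested. Of 15 erythroid markers 12 were measured, among them Tfrc, which encodes the sort marker CD71, and the erythroid factors Gata1 and Klf1. The brightest probe sets of Gata1, Klf1 and Tfrc read 9.07 to 9.79, 10.74 to 11.74 and 11.45 to 12.15 (log2). The summed level of the list was 18790 to 20200 in wild type and 12400, 20640 and 20930 in mutant replicates 1 to 3, and 15 of its 17 probe sets were lowest on mutant replicate 1 (median -0.75 against the wild type mean, log2). The part of this in the class II values was not tested. Of the 17 erythroid probe sets 2 fell and 0 rose (1.39% and 0.941% of all probe sets): 1422966_a_at of Tfrc by 1.10 ± 0.10, although its brightest probe set differed by -0.34 ± 0.15 (adjusted p = 0.29), and 1431743_a_at of Slc4a1, the red cell anion exchanger, by 1.74 ± 0.27 (log2, SE; limma, adjusted p = 0.0039 and 0.028). Both were lost without wild type replicate 1 or 2, and that of Slc4a1 also without wild type replicate 3 and with the replicate block (adjusted p up to 0.16); the brightest probe set of Slc4a1 differed by -0.029 ± 0.19. Many of the 12 neutrophil markers were bright as well, with Mpo, the myeloperoxidase of granulocyte precursors, at 12.38 to 13.54. Mmp8 (4.72 to 6.16) and Mmp9 (4.01 to 5.50), chosen after their values were seen, were not.

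None of the class II genes passed the test between mutant and wild type erythroblasts. Of the 12 probe sets 0 passed an adjusted p under 0.05 (limma, Benjamini-Hochberg over all 22626 probe sets), against 2.33% of all probe sets. Also, 0 of the 12 had an unadjusted p under 0.05 (19.1% of all probe sets), and for 0 of the 12 were the groups free of overlap (26.1% of all). The median difference, mutant minus wild type, was 0.05 (log2), against -0.01 over all probe sets, with 7 probe sets above 0 and 5 below. This median rested on single mutant samples: it was -0.086 without mutant replicate 2, 0.17 without replicate 1 and 0.22 without replicate 3, and it was 0.22 with array weights. The mutant samples spread more: the SD was larger in the mutant group for 11 of the 12 probe sets, with a median of 0.39 against 0.13 in wild type (log2; 0.18 against 0.090 over all probe sets).

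Cd74, the invariant chain, read 7.48, 7.49 and 7.42 in wild type and 7.17, 8.40 and 7.49 in mutant samples (log2, replicates 1 to 3, probe set 1425519_a_at). Mutant replicate 2 stood above all other samples and mutant replicate 1 below them, while mutant replicate 3 lay level with wild type. The difference was 0.22 ± 0.29 (log2, SE), with a 95% confidence interval of -0.44 to 0.89 (limma, adjusted p = 0.73). Leaving out mutant replicate 2 gave -0.13, and leaving out mutant replicate 1 gave 0.48.

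H2-Aa encodes the A alpha chain. Its brighter probe set, 1435290_x_at, read 7.59, 7.59 and 7.50 in wild type and 7.49, 8.32 and 7.82 in mutant samples (log2). Mutant replicates 2 and 3 were above every wild type sample and replicate 1 was just below them. The difference was 0.32 ± 0.20 (log2, SE; adjusted p = 0.45, limma), and it was 0.093 without mutant replicate 2 and 0.51 without replicate 1. The dimmer probe set, 1452431_s_at, read 6.37, 6.06 and 6.18 in wild type and 5.94, 7.00 and 5.06 in mutant samples. It also placed mutant replicate 2 highest, but it placed replicate 3 lowest of all, where the other probe set had it above wild type. Its difference of -0.21 ± 0.43 (limma, adjusted p = 0.84) became 0.26 when mutant replicate 3 was left out and -0.70 when mutant replicate 2 was. The suffixes x and s mark probe sets in which some or all probes also match other transcripts, so the level of H2-Aa on mutant replicate 3 is uncertain.

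H2-Ab1, the A beta chain that pairs with A alpha, had 3 probe sets. The brightest, 1450648_s_at, read 7.08, 7.09 and 6.86 in wild type and 7.07, 7.71 and 7.28 in mutant samples (log2), a difference of 0.34 ± 0.17 (SE; adjusted p = 0.33, limma). Probe set 1451721_a_at read 5.75, 5.56 and 5.48 against 5.54, 6.14 and 5.66 (difference 0.18 ± 0.17), and 1425477_x_at read 5.53, 5.58 and 5.64 against 5.49, 6.07 and 5.23 (difference 0.01 ± 0.20). All 3 placed mutant replicate 2 highest. They placed replicate 3 above, within and below the wild type values in turn. Without mutant replicate 2 the 3 differences were 0.17, -0.00018 and -0.22, and without mutant replicate 1 they were 0.48, 0.30 and 0.062. The difference of 0.01 turned to -0.0020 when quantile normalisation was repeated without controls, whereas the other 11 member probe sets kept their sign under both rescalings.

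H2-Eb1, the E beta chain, read 5.76, 5.70 and 5.76 in wild type and 5.47, 5.96 and 6.07 in mutant samples (log2). Here mutant replicate 3 was highest, replicate 2 was next and replicate 1 was lowest of all 6. The difference was 0.09 ± 0.16 (log2, SE), with a 95% confidence interval of -0.28 to 0.47 (adjusted p = 0.81, limma). It was 0.27 without mutant replicate 1, 0.027 without replicate 2 and -0.027 without replicate 3. Of 3 probe sets for H2-Ea, the E alpha gene and not a member, chosen after their values were seen, 1422891_at read 6.54 to 6.81 in wild type and 6.36 to 6.56 in mutant samples (difference -0.17 ± 0.11, adjusted p = 0.46). Probe set 1422892_s_at read 4.59 to 4.77 and 3.90 to 4.28, without overlap, a difference of -0.60 ± 0.12 that did not pass the test (adjusted p = 0.056). The dimmest, 1426202_at, read 2.13 to 2.29 over all 6 arrays.

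**Figure D1:**
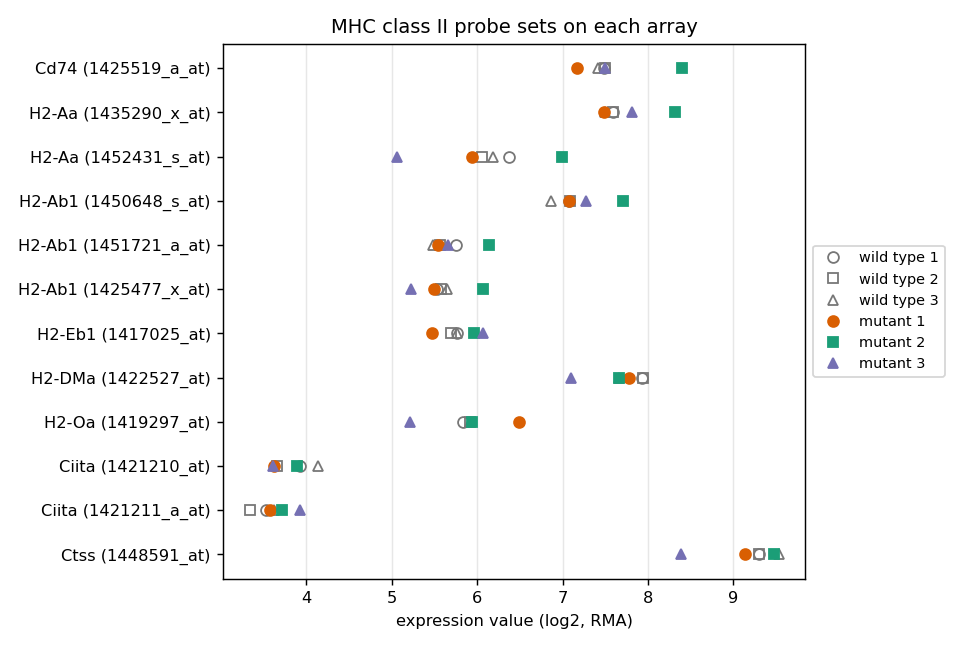
Expression values (log2, RMA; x axis) of the 12 class II probe sets (y axis) on each of the 6 arrays, with open grey symbols for the 3 wild type and filled symbols for the 3 mutant samples. Mutant replicate 2 is highest for Cd74 (8.40) and for all probe sets of H2-Aa and H2-Ab1. Mutant replicate 3 is lowest for Ctss (8.38), H2-DMa (7.10) and H2-Oa (5.21), and for 1 probe set each of H2-Aa (5.06), H2-Ab1 (5.23) and Ciita (3.61).

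H2-DMa, H2-Oa and Ctss, which act on peptide loading, were not highest on mutant replicate 2. H2-DMa, the alpha chain of H2-DM, read 7.93, 7.94 and 7.66 in wild type and 7.78, 7.66 and 7.10 in mutant samples (log2; difference -0.33 ± 0.19, SE, adjusted p = 0.40, limma). H2-Oa, the alpha chain of H2-O, read 5.84, 5.91 and 5.92 in wild type and 6.49, 5.94 and 5.21 in mutant samples (difference -0.01 ± 0.29, adjusted p = 0.99). Ctss read 9.30, 9.30 and 9.53 in wild type and 9.14, 9.47 and 8.38 in mutant samples (difference -0.38 ± 0.26, adjusted p = 0.48). Mutant replicate 3 was the lowest sample for all 3 genes, and its value minus the wild type mean was -0.74 for H2-DMa, -0.68 for H2-Oa and -0.996 for Ctss (log2). Replicate 3 was also lowest for 1452431_s_at of H2-Aa (5.06) and 1425477_x_at of H2-Ab1 (5.23). Replicate 2, the highest for Cd74 and H2-Aa, was highest for none of H2-DMa, H2-Oa and Ctss, and H2-Oa was highest on replicate 1. Among the mutant samples alone, Ctss was highest on replicate 2 and H2-DMa on replicate 1. The windows of H2-Oa and H2-Aa shown above both hold the pair of cores at the same spacing, and the part of these cores in the values was not tested. Without mutant replicate 3 the differences were -0.12 for H2-DMa, 0.33 for H2-Oa and -0.07 for Ctss. Without mutant replicate 2 that of Ctss was -0.62, and without mutant replicate 1 that of H2-Oa was -0.31.

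Ciita, which sets the level of the class II genes in antigen-presenting cells, was dim and did not follow them. Probe set 1421210_at read 3.93, 3.66 and 4.14 in wild type and 3.62, 3.89 and 3.61 in mutant samples (log2; difference -0.20 ± 0.15, SE, adjusted p = 0.52, limma). Probe set 1421211_a_at read 3.53, 3.34 and 3.62 in wild type and 3.58, 3.72 and 3.93 in mutant samples (difference 0.24 ± 0.13, adjusted p = 0.36). Without wild type replicate 3 the first difference was -0.087, and without mutant replicate 3 the second was 0.15. The 2 probe sets differed in sign, and neither placed mutant replicate 2 highest.

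**Figure D2:**
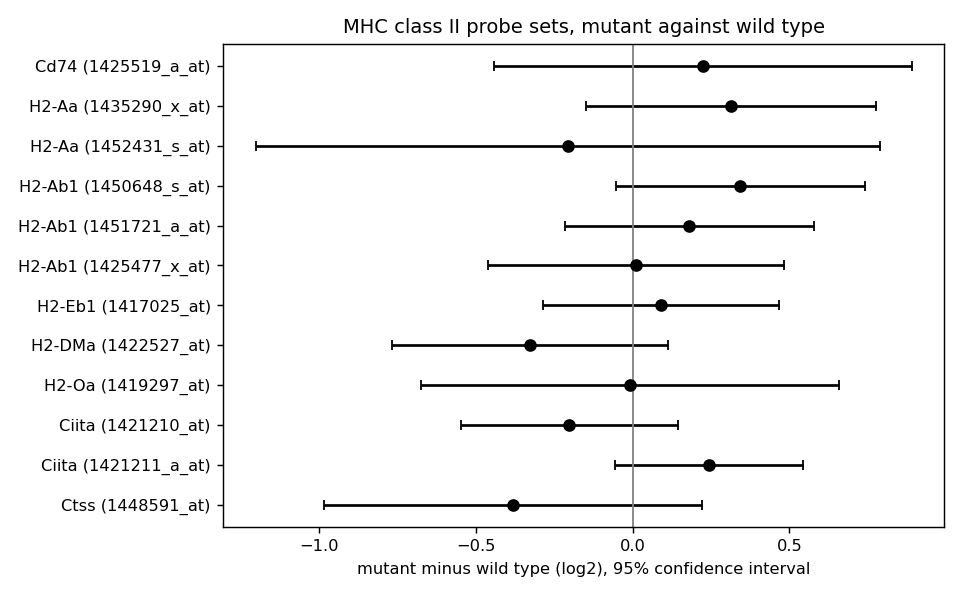
Difference between the groups, mutant minus wild type (log2; x axis), for the 12 class II probe sets (y axis), with points for the estimate of the limma fit and bars for its 95% confidence interval over 3 samples a group. Every interval includes 0, from that of Ciita 1421211_a_at (-0.05 to 0.54) to that of H2-Aa 1452431_s_at (-1.20 to 0.79).

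Of the rest of the class II pathway, 22 of 25 listed genes were measured, with 42 probe sets. Of these 1 fell and 0 rose, against 1.39% and 0.941% of all probe sets, and the median difference was -0.01 (log2). The probe set that fell was 1422082_a_at of Nfya, a subunit of NF-Y, which read 6.50, 6.45 and 6.21 in wild type and 5.23, 5.38 and 5.40 in mutant samples (log2), 0.48 of the wild type level (adjusted p = 0.0083, limma). It was not called without wild type replicate 1 or 2, where the adjusted p rose to at most 0.084, and ran from 0.0012 over the 14 alternatives that tested it. The brightest Nfya probe set differed by -0.44 ± 0.16 (adjusted p = 0.19) and the third by -0.27 ± 0.11 (adjusted p = 0.23). Rfx5, the subunit of RFX that binds DNA, read 6.46 to 6.71 in wild type and 6.74 to 6.86 in mutant samples, a difference of 0.23 ± 0.10 (adjusted p = 0.29, limma).

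Other genes of this list, chosen after their values were seen, placed mutant replicate 2 highest as Cd74 did. Ifi30, a thiol reductase of the endosome that prepares antigen, read 9.08, 9.05 and 8.99 in wild type and 9.30, 9.98 and 9.38 in mutant samples (difference 0.51 ± 0.18, adjusted p = 0.18, limma). Irf4, a factor of B cells and plasma cells, read 4.95, 4.40 and 4.32 against 5.27, 6.58 and 5.46 (1421173_at, difference 1.21 ± 0.34, adjusted p = 0.12). Spib, a factor of B cells and plasmacytoid dendritic cells, read 7.01, 7.01 and 6.79 against 6.70, 8.72 and 7.27 (difference 0.62 ± 0.45, adjusted p = 0.52). Over the whole list, 19 of the 42 probe sets were highest on mutant replicate 2 (45.2%), against 6 of 12 among the members and 17.2% of all probe sets.

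Most probe sets of B cell markers were also highest on mutant replicate 2. Of 18 listed B cell genes 15 were measured, with 21 probe sets, of which 16 (76.2%) were highest on that sample. Their summed level, over the brightest probe set of each gene on the linear scale, was 1094 to 1192 in wild type and 1299, 4107 and 1793 in mutant replicates 1 to 3. Ms4a1, the CD20 antigen, read 5.09, 4.87 and 5.08 in wild type and 5.09, 8.16 and 6.77 in mutant samples (log2, 1423226_at). Cd79a, a signalling chain of the B cell receptor, read 5.91, 6.11 and 5.81 against 5.74, 8.003 and 6.66, and Cd79b, its partner, 6.80, 6.83 and 6.65 against 7.09, 8.88 and 7.41. Mutant replicate 2 thus stood highest for most B cell probe sets and for Cd74, H2-Aa and H2-Ab1. Replicate 3 was next for Ms4a1, Cd79a and Cd79b. The probe sets of Pax5, Btk, Cr2 and Fcer2a were not highest on replicate 2. Pax5 read 4.32 to 4.66 in wild type and 4.48 on mutant replicate 2, and Btk 7.61 to 7.78 and 7.44. On replicate 2 the gap from the wild type mean was larger for Ms4a1 (3.15), Cd79a (2.06) and Cd79b (2.12) than for Cd74 (0.94), H2-Aa (0.76) or H2-Ab1 (0.70). No B cell probe set passed the test with all samples (0 of 21; 6 at an unadjusted p under 0.05, limma; lowest p for Ebf1, Blnk, Cd72 and Ms4a1, with adjusted p of 0.070, 0.14, 0.14 and 0.23), whereas 10 of 21 were called higher without mutant replicate 1. That fit called 5.98% of all probe sets higher, called 5.27% lower and called 0 of the 12 class II probe sets (5 at an unadjusted p under 0.05). With any 1 other array left out, 0 of the 21 B cell probe sets were called. For B cell precursors, the summed level of 7 markers without Cd24a, which erythroid cells also express, was 556.1 to 593.6 in wild type and 502.1, 1818 and 1019 in mutant samples. Of the 14 probe sets of this list, Cd24a included, 0 passed the test (2 at an unadjusted p under 0.05, limma). Without mutant replicate 1, 5 were called higher, and 0 were called with any 1 other array left out. The lowest p was that of a Cd24a probe set that was lower in mutant samples (1416034_at, difference -0.44 ± 0.14). Vpreb1 and Igll1 of the surrogate light chain and the recombinase gene Rag1 followed, with higher means in mutant samples (limma, adjusted p 0.16 to 0.39, Cd24a included). In RMA values no marker reads 0. The part of these cells in the class II values was not tested.

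Markers of macrophages and monocytes were mostly lowest on mutant replicate 3, as were Ctss and H2-DMa. All 17 listed genes were measured, with 30 probe sets, of which 0 passed the test (3 at an unadjusted p under 0.05, limma) and 23 (76.7%) were lowest on mutant replicate 3, against 6 of the 12 member probe sets and 17.9% of all probe sets. Their summed level was 7827 to 8641 in wild type and 8881, 8293 and 4628 in mutant samples. Csf1r, the receptor for macrophage colony-stimulating factor, read 10.05, 10.02 and 9.90 in wild type and 10.28, 9.84 and 8.97 in mutant samples (log2, 1419872_at). Of lowest p were Fcgr1, an Fc receptor (difference -0.41 ± 0.11, adjusted p = 0.091, limma), the mannose receptor Mrc1 (-0.36 ± 0.11, adjusted p = 0.15), Cd14, a receptor for bacterial endotoxin (-1.49 ± 0.60, adjusted p = 0.23), and the lysosomal Cd68 (-0.67 ± 0.29, adjusted p = 0.26). Fcgr1 was dim, at 3.24 to 3.37 in wild type and 2.73 to 2.97 in mutant samples. Cd14 read 8.06, 8.03 and 7.91 in wild type and 8.003, 6.28 and 5.23 in mutant samples. Without mutant replicate 1, 4 of the 30 macrophage and monocyte probe sets were called lower, against 5.27% of all probe sets. Leaving out any 1 other array called 0 of the 30. Adgre1, a surface antigen of mature mouse macrophages, was dim and varied little, at 5.03 to 5.09 in wild type and 4.82 to 4.96 in mutant samples. Neutrophil markers were lower there too: 12 of 13 probe sets were lowest on mutant replicate 3 and all 13 were highest on replicate 1, with summed levels of 31510 to 33800 in wild type and 50520, 23070 and 16820 in mutant samples. Of the 13 neutrophil probe sets 0 passed the test (0 at an unadjusted p under 0.05; lowest p for Elane, Ltf, Ngp and S100a9, adjusted p 0.39 to 0.58, limma). Without mutant replicate 1, 8 were called lower, and 0 were called with any 1 other array left out.

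Dendritic cell markers, which mark the cells richest in class II, comprised 12 measured genes of 14 with 23 probe sets, and 1 fell and 0 rose (1.39% and 0.941% of all probe sets). Cd209a, a lectin of monocyte-derived dendritic cells, fell by 0.93 ± 0.14 (log2, SE), from a mean of 6.002 over 3 wild type samples to 5.07 over 3 mutant samples (limma, adjusted p = 0.025). It was lost in 5 of 16 alternatives, among them leaving out any 1 wild type replicate or mutant replicate 2 (adjusted p 0.0045 to 0.16 over the alternatives). Itgax, the CD11c integrin, read 5.77, 5.89 and 5.94 in wild type and 5.25, 6.02 and 5.13 in mutant samples (difference -0.40 ± 0.22, adjusted p = 0.39). The summed level of the list was 1016 to 1046 in wild type and 902.8, 1430 and 740.6 in mutant samples, highest on replicate 2 and lowest on replicate 3. T and NK cell markers (12 of 13 genes measured) summed to 684.9 to 736.8 in wild type and 971.5, 674.7 and 611.3 in mutant samples, and 0 of 15 probe sets passed the test (4 at an unadjusted p under 0.05, limma). Those were of Cd3d, Lat, Cd3g and Cd3e, parts of T cell receptor signalling, with differences of -0.36, 0.32, -0.28 and -0.29 (log2; adjusted p 0.12 to 0.26). Without mutant replicate 1, 1 of the 15 was called lower, against 5.27% of all probe sets. The part of any of these cell types in the class II values was not tested.

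**Figure D3:**
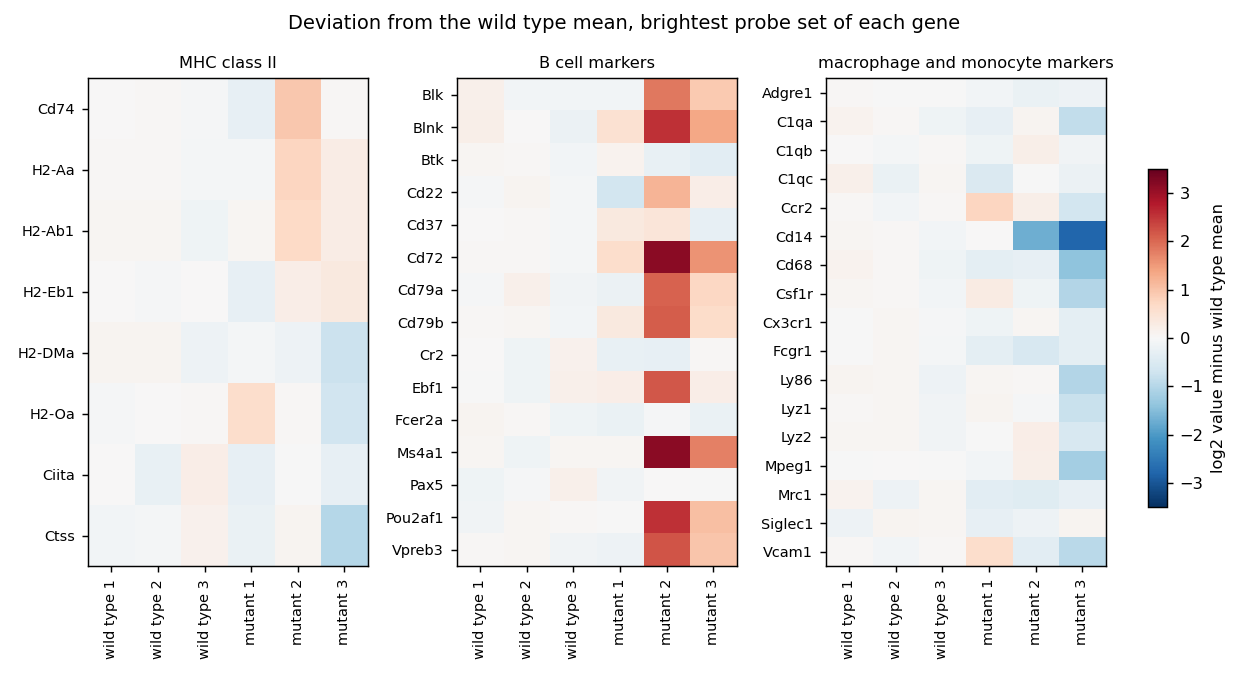
Log2 value minus the wild type mean (colour) on each of the 6 arrays (columns) for the brightest probe set of each gene (rows), for the class II members, B cell markers and macrophage and monocyte markers. On mutant replicate 2 Cd74 (0.94) and Ms4a1 (3.15) are above the wild type mean, and on mutant replicate 3 Ctss (-0.996) and Csf1r (-1.02) are below it.

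Interferon gamma induces class II through Irf1 and Ciita. Of 17 listed genes of this pathway 15 were measured, with 22 probe sets, and 0 passed the test (4 at an unadjusted p under 0.05, limma; median difference -0.12). Igtp, a guanosine triphosphatase induced by interferon gamma, was the one with the lowest p and read 7.80 to 7.88 in wild type and 7.14 to 7.55 in mutant samples (difference -0.56 ± 0.13, adjusted p = 0.076). Jak2 (1421065_at), Gbp7 and Ifngr2 (1423557_at) followed, with lower means in mutant samples (limma, adjusted p 0.21 to 0.27). The brightest probe sets of Jak2 and Ifngr2 differed by -0.096 and -0.072 (limma, adjusted p = 0.72 and 0.83). Leaving out any 1 mutant replicate gave 1 or 2 probe sets called lower in this list. Irf1 read 6.66 to 6.81 in wild type and 7.23, 7.10 and 6.40 in mutant samples (difference 0.19 ± 0.21, adjusted p = 0.68).

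The class I pathway did hold differences; its heavy chain genes H2-D1 and H2-K1 lie in the gene complex on chromosome 17 that also holds the A, E, DM and O genes. Of 14 listed genes of the class I pathway 12 were measured, with 29 probe sets, of which 5 fell and 0 rose (1.39% and 0.941% of all probe sets). Without mutant replicate 1, 8 fell and 1 rose (5.27% and 5.98% of all probe sets). H2-D1, a class I heavy chain and one of the most variable genes between mouse strains, had 9 probe sets, and 4 of them fell by 2.29 to 3.87 (log2), from 6.64 to 7.65 on the wild type arrays to 3.43 to 5.12 on the mutant arrays. The largest of these was 1450170_x_at, which read 7.65, 7.62 and 7.65 in wild type and 3.70, 4.19 and 3.43 in mutant samples (difference -3.87 ± 0.18, adjusted p = 0.00059, limma). All 3 mutant samples were low for each of the 4. The 4 calls held in all 14 alternatives that tested these probe sets (adjusted p at most 0.031). The other 5 probe sets of the same gene differed by -0.06 to 0.25 and were not called. The brightest, 1425545_x_at, read 11.08, 11.11 and 11.04 against 11.22, 11.36 and 10.52. The probe sets of H2-D1 thus disagreed, so no change in the level of the gene as a whole can be given. All 4 that fell have the x suffix of probe sets that also match other transcripts. The suffix does not set them apart, since 1425545_x_at, 1451784_x_at and 1451683_x_at have it and did not fall. The labels give FVB/N for all samples, but a probe set reads sequence match as well as level. Whether both groups carry the same alleles across this complex was not tested, and this limit holds for the A, E, DM and O genes and H2-Ea too.

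**Figure D4:**
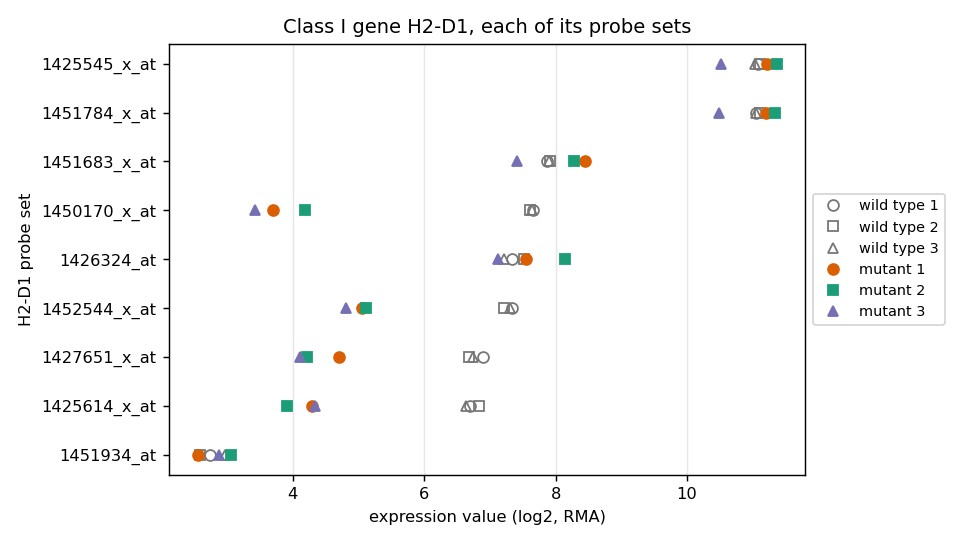
Expression values (log2, RMA; x axis) of the 9 H2-D1 probe sets (y axis) on each of the 6 arrays, with open grey symbols for wild type and filled symbols for mutant samples. In 4 probe sets the wild type values (6.64 to 7.65) lie above all mutant values (3.43 to 5.12), whereas in the others the groups lie close together.

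The remaining class I probe set that fell was 1450378_at of Tapbp, the tapasin that loads class I, which read 6.87, 6.79 and 6.72 in wild type and 5.99, 5.68 and 5.98 in mutant samples (log2; limma, adjusted p = 0.017). It was lost with the replicate block (adjusted p = 0.056) and without any 1 wild type replicate (adjusted p up to 0.13; 0.0013 at the lowest over the alternatives), and the brighter Tapbp probe set differed by 0.0052 ± 0.10. B2m, the light chain of class I, differed by -0.44 ± 0.18 on its brightest probe set (limma, adjusted p = 0.25). Its dimmer probe set read 11.25, 11.24 and 11.17 in wild type and 10.90, 10.77 and 10.27 in mutant samples, a difference of -0.58 ± 0.17 (adjusted p = 0.12). Of the 29 class I probe sets, 20 had a lower mean in mutant samples and 9 a higher one. Among the 9 was 1416016_at of Tap1, chosen after its values were seen (difference 0.45 ± 0.10, limma, adjusted p = 0.061). The brightest probe set of H2-K1, the other class I heavy chain of the list, read 10.79 to 10.87 in wild type and 11.07, 11.09 and 10.30 in mutant samples. It was lowest on mutant replicate 3, as were 17 of the 29 class I probe sets. No class II probe set showed a gap between the groups of the kind seen in H2-D1: the largest absolute difference among the 12 was that of Ctss, at -0.38.

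The genes whose values over the 6 arrays lay nearest to the class II chains, in size as well as order, were found by the root mean square difference between profiles of deviations from the mean of 6 arrays. The reference was the mean profile of Cd74, H2-Aa, H2-Ab1 and H2-Eb1, each by its brightest probe set. The 8 nearest genes outside the members were Sesn1 (0.033, log2), Ctsw (0.035), Ypel3 (0.043), Mylip (0.043), Cntrob (0.045), Rsad2 (0.048), Baz1b (0.049) and Map3k1 (0.058). By the same measure H2-Aa lay 0.041, H2-Ab1 0.087, Cd74 0.15 and H2-Eb1 0.18 from their own mean, and H2-Oa, at 0.52, was the farthest of the members. Sesn1, a stress-induced inhibitor of mTOR signalling, read 8.30, 8.25 and 8.15 in wild type and 8.02, 8.85 and 8.47 in mutant samples. Ctsw, a cathepsin of cytotoxic lymphocytes, read 4.32, 4.36 and 4.29 against 4.22, 5.04 and 4.53, and Rsad2, an antiviral gene induced by interferon, 10.38, 10.30 and 10.24 against 10.07, 10.86 and 10.50. The measure leaves out genes with the same order of samples but larger changes. Of the 8 genes 0 passed the test (limma, 0 at an unadjusted p under 0.05). They were picked for likeness to genes that did not pass, so this count is no separate result. With 6 arrays such likeness is a description of these samples only.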

How the data were processed

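One Affymetrix array was read per sample, for 3 wild type and 3 mutant samples. The deposited values are log2 expression values per probe set. GCOS, Affymetrix Expression Console and RMA are the tools the authors list, per the submitters' processing notes. RMA corrects the background, quantile normalises and summarises probes. Tool versions and the set of arrays normalised jointly were not stated. The number of arrays limits the precision. The file holds 22690 probe sets; 64 control probe sets were left out. The platform annotation, dated 2016, gave 1 symbol for 20380 of the rest, several for 691 and none for 1555.

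All 22626 probe sets were fitted by lmFit and eBayes without covariates (two-sided; limma 3.58.1, R 4.3.3), adjusted by Benjamini-Hochberg and called at an adjusted p under 0.05. Single-value permutation tests were not used, since 3 samples against 3 cannot give a p below 0.1. The brightest probe set of a gene has the highest mean over 6 arrays. Of the other gene lists, the text names called probe sets or, where none was called, genes of lowest p, besides a fixed set of genes and the 8 nearest profiles. Genes outside that rule are said to be chosen after their values were seen. The members and lists were chosen with earlier results of these data known. The fit was checked on simulated data. The labels do not say whether equal replicate numbers pair the samples, so the main fit did not pair them. Deviations of equally numbered arrays correlated at 0.051, 0.028 and 0.056, which cannot settle whether they were paired. Promoters were scanned with Python 3.11.15.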

Additional observations from a re-analysis of the deposited data

How the results depend on the processing

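Each count was recomputed under 16 alternatives: the variance prior, array weights, rescaling, filters on dim probe sets, the replicate block, 1 value per gene and leaving out each array. The count of class II probe sets called was 0 in each (up to 6 at an unadjusted p under 0.05, with array weights, limma), and the lowest adjusted p was 0.052, for H2-Aa with array weights. Of 176 recomputed member differences, 12 changed sign, none of them called. The number of all probe sets called was 528, and 2667 with array weights, 112 with the replicate block, 41 with the brightest probe set of each gene, 47 with the mean of a gene's probe sets and 36 to 2544 when 1 array was left out. The number of probe sets of the other lists called was 9, and 48 with array weights, 7 with the replicate block, 0 with the brightest probe set of each gene (25 at an unadjusted p under 0.05, limma), 2 with the mean and 4 to 48 with 1 array left out. Leaving out mutant replicate 1 gave both highest counts, leaving out wild type replicate 2 gave 36 and 4, and leaving out wild type replicate 1 also gave 4. The fits per gene tested 12393 genes in place of 22626 probe sets. The cause of the shifts in these counts was not tested. Every array correlated best with the array of its own number in the other group, which is a hint from the data and not the design, and the replicate block changed no call of a class II gene. Signal over background is not given in these files, so dim probe sets such as those of Ciita could not be separated from background.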
